A study of Mus musculus with 8 samples.

Results

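The enzymes of folate one-carbon metabolism were examined in mouse splenic T cells. The members were Shmt1, Mthfd1 and Tyms, grouped here as cytosolic, and Shmt2, Mthfd1l and Mthfd2, which act in mitochondria. They were chosen by gene name. Tyms, which also acts in the nucleus, was placed with the cytosolic enzymes. Each was read through the array probe for one of its RefSeq transcripts with the highest mean log2 signal over the 8 arrays. The rule found 8 probes for the 6 genes, all 6 chosen probes were well above background on all 8 arrays, and the 6 genes stood among 15139 genes tested.

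The study compared T cells of Lsp1-deficient (KO) mice with those of wild-type (WT) C57BL/6 mice. The product of Lsp1 binds the actin cytoskeleton of leukocytes, and the series deals with how T cells migrate in rheumatoid arthritis. The extent of the deletion was not stated. Per the labels the KO mice had been backcrossed for 10 generations onto C57BL/6, and animals of both genotypes were age- and sex-matched at 8 to 12 weeks. The 4 groups were KO cells given antibodies against CD3 and CD28 for 6 h, WT cells given the same antibodies, KO cells in medium and WT cells in medium, with 2 Cy3-labelled arrays each. Both antibodies are used together to activate T cells in culture. How long the medium cells were cultured, how T cells were separated, and whether the 2 arrays within each group hold RNA of different animals were not given in the sources used here, and p-values therefore cover array-to-array spread, which may be only technical.

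Folate carries single carbon units from serine to the synthesis of purines, thymidylate and methionine. The serine hydroxymethyltransferases move a carbon from serine to tetrahydrofolate, and the MTHFD enzymes then interconvert the methylene, methenyl and formyl forms. The same chemistry runs in both compartments. In many proliferating cells the mitochondrial branch makes formate, which leaves for the cytosol, where Mthfd1 uses it. T cells are known to raise this pathway when they leave rest, and Mthfd2 and Shmt2 are its most studied enzymes in that setting.

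A value below is the log2 processed signal of a probe minus the 75th percentile of that array, called the scaled log2 signal, so a negative value lies below that percentile. Differences were tested with limma over all 15139 genes, with Benjamini-Hochberg adjusted two-sided p-values and a call at an adjusted p below 0.05. Errors after a difference are standard errors of that fit. An array measures a pool of cells, so fewer cells of a type and less RNA per cell cannot be told apart, and signals of different probes were not set against each other.

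Lsp1 and cell markers were read first. The scaled log2 signal of Lsp1 was 3.68 and 3.65 in stimulated KO cells, against 7.05 and 6.98 in stimulated WT cells, and 3.64 and 3.48 in KO cells in medium, against 7.47 and 7.23 in WT cells in medium. KO minus WT was -3.35 ± 0.13 after stimulation and -3.79 ± 0.13 in medium (adjusted p = 0.00248 and 0.00117), so the signal followed the genotype labels. All 10 T cell markers, among them Cd3e and Lck, were well above background on every array, with a summed signal of 664 to 892 on the linear scale, in units of the 75th percentile. The KO replicate 2 arrays stood apart. On them the median of 10 neutrophil and precursor markers lay 3.56 (stimulated) and 4.41 (medium) above the WT medium mean on the log2 scale, and on the other 6 arrays between -1.16 and 0.33. That of 16 proliferation markers lay at 1.03 and 0.92, against -0.08 to 0.05 elsewhere, and that of 8 erythroid and platelet markers at 2.54 and 1.79, against -0.58 to 0.56. The median of 7 tested monocyte and macrophage markers lay at 1 and 0.82, against -0.32 to 0.12. Neutrophil markers were well above background on all arrays for 8 of 10 and erythroid ones for 7 of 8. Of the 8 B cell, 7 natural killer cell and 7 tested monocyte markers, all were well above background on all arrays. The summed B cell signal in the same units was 17.1 to 28 on the KO arrays, against 27.3 to 35.3 on the WT arrays. The part of these marker differences in the results on the enzymes was not tested. Results are therefore also given without both KO replicate 2 arrays. That leaves 1 array in each KO group, so calls in such a fit rest on the spread of the WT arrays alone.

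Stimulation with anti-CD3/CD28 came with higher signal of most of the 6 enzymes in both genotypes. In KO cells 4 of 6 rose, Shmt1, Mthfd1, Shmt2 and Mthfd2, where 8.03% of all genes tested were called, 5.79% higher and 2.23% lower. In WT cells 5 of 6 rose, the same 4 and Mthfd1l, where 10.3% of all genes were called, 6.38% higher and 3.88% lower. None of the 6 fell in either genotype, and Tyms passed in neither. The median change of the 6 was 1.24 in KO and 1.25 in WT on the log2 scale, beside -0.08 and -0.09 over all genes.

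**Figure D1:**
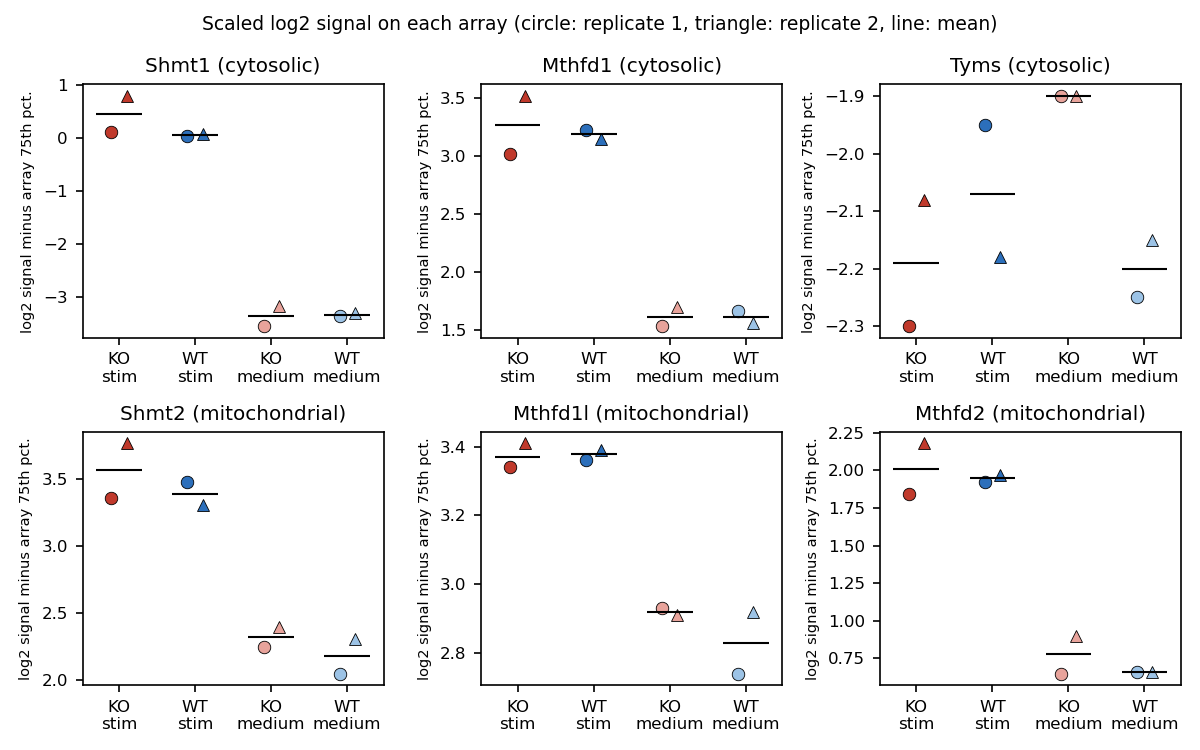
Scaled log2 signal (vertical axis, log2 signal minus the array's 75th percentile) of the 6 enzymes in the 4 groups. Each point is an array and each line a group mean. In 5 panels both stimulated groups lie above both medium groups, and in the Tyms panel they do not. The share of all genes tested with groups separated in this way was not computed.

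Among the cytosolic enzymes, Shmt1, which makes glycine and methylene-tetrahydrofolate from serine, had the largest change. Its scaled log2 signal was 0.12 and 0.80 in stimulated KO cells, against -3.56 and -3.18 in KO cells in medium. In stimulated WT cells it was 0.05 and 0.09, against -3.36 and -3.31 in WT cells in medium. All 4 stimulated arrays thus lay far above all 4 medium arrays. The rise was 3.83 ± 0.24 in KO (14.2-fold, adjusted p = 0.00114) and 3.41 ± 0.24 in WT (10.6-fold, adjusted p = 0.00159). It ranked 46 from the top among the 15139 log2 fold changes in KO and 63 in WT.

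The size of the Shmt1 response depended on the probe. A second probe for the same transcript (A_55_P2186584), dimmer on average than the first (A_52_P673499), read -2.06 and -1.80 in stimulated KO cells, against -2.49 and -2.96 in KO cells in medium. It read -1.80 and -1.93 in stimulated WT cells, against -2.79 and -2.92 in WT cells in medium. The groups did not overlap with this probe either, and the direction was the same. The change was 0.80 ± 0.19 in KO (1.74-fold), which missed the threshold (adjusted p = 0.0576), and 0.99 ± 0.19 in WT (1.99-fold, adjusted p = 0.0292). The files hold no probe sequences, so the part of the transcript each probe reads was not analysed here.

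Mthfd1, which joins formate to tetrahydrofolate in the cytosol and interconverts the products, also rose. Its scaled log2 signal was 3.02 and 3.52 in stimulated KO cells, against 1.53 and 1.70 in KO cells in medium. In stimulated WT cells it was 3.23 and 3.15, against 1.66 and 1.56 in WT cells in medium. Stimulated and medium arrays were well separated, and the 2 stimulated KO arrays lay on either side of the WT ones. The rise was 1.66 ± 0.18 in KO (3.15-fold, adjusted p = 0.00677) and 1.58 ± 0.18 in WT (2.98-fold, adjusted p = 0.00815).

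Tyms, thymidylate synthase, uses methylene-tetrahydrofolate to make thymidylate for DNA. Its scaled log2 signal was -2.30 and -2.08 in stimulated KO cells, against -1.90 and -1.90 in KO cells in medium. In stimulated WT cells it was -1.95 and -2.18, against -2.25 and -2.15 in WT cells in medium. KO arrays did not overlap and were lower after stimulation, while WT arrays overlapped. The difference was -0.30 ± 0.14 in KO (adjusted p = 0.240) and 0.13 ± 0.14 in WT (adjusted p = 0.551). The 95% intervals ran from -0.63 to 0.04 and from -0.20 to 0.47, so a rise of the size seen for Mthfd1 lay outside both. Tyms was read through 1 probe, and this holds for that probe alone.

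**Figure D2:**
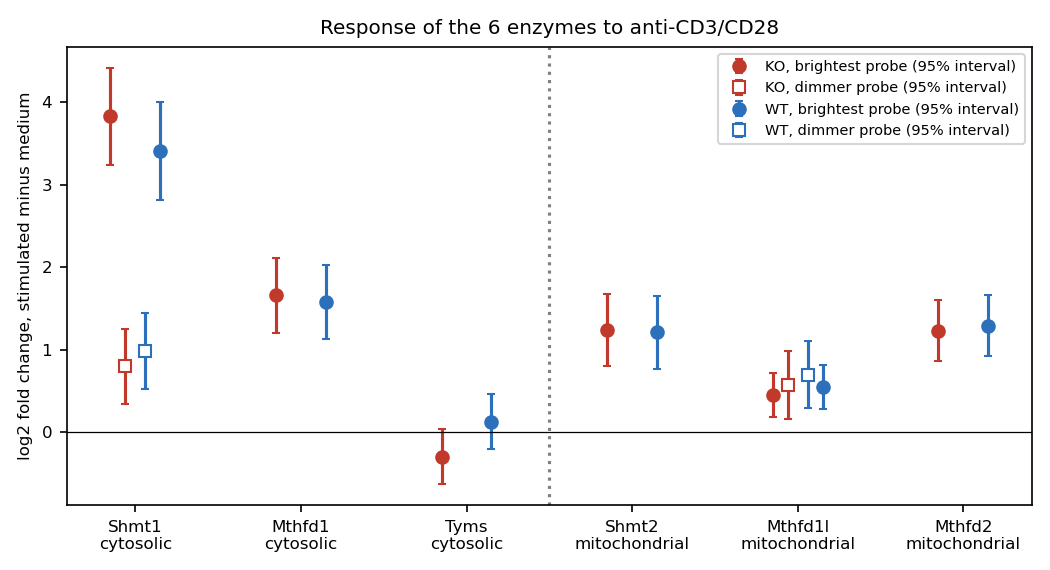
Log2 fold change, stimulated minus medium (vertical axis), of the 6 enzymes in KO (red) and WT (blue). Filled points are the chosen probes and open squares the dimmer probes of Shmt1 and Mthfd1l, with 95% intervals of the fit. The chosen Shmt1 probe lies at 3.83 and 3.41 and its dimmer probe at 0.80 and 0.99.

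Among the mitochondrial enzymes, Shmt2 is the counterpart of Shmt1. Its scaled log2 signal was 3.36 and 3.77 in stimulated KO cells, against 2.25 and 2.40 in KO cells in medium. In stimulated WT cells it was 3.48 and 3.31, against 2.05 and 2.31 in WT cells in medium. The groups did not overlap in either genotype. It rose by 1.24 ± 0.18 in KO (2.37-fold, adjusted p = 0.0138) and 1.21 ± 0.18 in WT (2.31-fold, adjusted p = 0.0156).

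Mthfd2, the mitochondrial methylene-tetrahydrofolate dehydrogenase and cyclohydrolase, changed by about as much. Its scaled log2 signal was 1.84 and 2.18 in stimulated KO cells, against 0.65 and 0.90 in KO cells in medium. In stimulated WT cells it was 1.92 and 1.97, against 0.66 and 0.66 in WT cells in medium. It rose by 1.23 ± 0.15 in KO (2.35-fold, adjusted p = 0.00888) and 1.29 ± 0.15 in WT (2.44-fold, adjusted p = 0.00828). Its relative Mthfd2l, which catalyses the same steps in mitochondria and was singled out after its values were seen, stood at 0.07 ± 0.16 in KO and -0.14 ± 0.16 in WT and passed in neither (adjusted p = 0.837 and 0.614).

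Mthfd1l, the mitochondrial formyltetrahydrofolate synthetase that releases formate, had the smallest change of the 3. Its scaled log2 signal was 3.34 and 3.41 in stimulated KO cells, against 2.93 and 2.91 in KO cells in medium. In stimulated WT cells it was 3.36 and 3.39, against 2.74 and 2.92 in WT cells in medium. The groups did not overlap in either genotype. The change was 0.45 ± 0.11 in KO (1.37-fold), which missed the threshold (adjusted p = 0.0662), and 0.55 ± 0.11 in WT (1.46-fold, adjusted p = 0.0354), a rise. A dimmer probe for another Mthfd1l transcript, also past the filter, gave 0.57 ± 0.17 in KO and 0.70 ± 0.17 in WT (adjusted p = 0.0994 and 0.0527).

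Several calls depended on single arrays. Without both KO replicate 2 arrays the changes in KO were 3.68 for Shmt1, 1.49 for Mthfd1, 1.11 for Shmt2 and 1.19 for Mthfd2. With 1 array then left in each KO group, that fit cannot say which of these changes exceed the spread among KO arrays. A fit of the 4 KO arrays alone called 0 of 6 in KO (adjusted p = 0.0522 for Shmt1, 0.102 for Mthfd1, 0.116 for Shmt2 and 0.114 for Mthfd2). That fit called 37 of the 15139 genes. The same fit of the 4 WT arrays called 5 of 6 members and 2743 genes. With WT medium replicate 1, WT stimulated replicate 1 or WT stimulated replicate 2 left out in turn, 1 array remained in that WT group. Fewer members, and also fewer of all genes tested, were then called in WT. The changes of Mthfd1, Shmt2 and Mthfd2 in WT stayed between 1.08 and 1.62.

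The 2 compartments were then set side by side by their changes. With the chosen probes the mean change of the 3 cytosolic enzymes was 1.73 in KO and 1.71 in WT, and that of the 3 mitochondrial enzymes 0.98 in KO and 1.02 in WT. Mitochondrial minus cytosolic was -0.75 in KO, with -0.66 and -0.85 on the 2 stimulated arrays, and -0.69 in WT, with -0.72 and -0.66. With Tyms counted as cytosolic (-0.30 in KO and 0.13 in WT), that order depended on the brighter Shmt1 probe. A mean without Tyms was not computed. Without Shmt1 the cytosolic mean was 0.68 in KO and 0.86 in WT, and the difference turned to 0.30 and 0.16. That mean held only Mthfd1 and Tyms. Mthfd1 by itself stood at 1.66 in KO and 1.58 in WT, above the mitochondrial means, so the turn also rested on the low Tyms values. With the dimmer probes of Shmt1 and Mthfd1l the difference was 0.30 and 0.17, and with the mean over all probes of a gene -0.23 and -0.26. Over both genotypes the changes of the 3 mitochondrial enzymes lay between 0.45 (Mthfd1l in KO, which did not pass) and 1.29, and those of the 3 cytosolic enzymes between -0.30 (Tyms in KO, which did not pass) and 3.83.

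Promoter sequence was read from RefSeq (GRCm38.p6) for the 6 enzymes, 250 bases before and 50 after the annotated start, and 1 window was found for each. Both strands were searched for the Myc E-box CACGTG, the ATF4 element TGATGNAA and the E2F forms TTTCGCGC and TTTGGCGC, none of which overlapped another in these windows. These motifs occur in 7.15%, 3.97%, 0.323% and 0.514% of the 32851 windows of that length in the table. Tyms held 1 E-box, at position -61 from the start, and the other members held none of the 4 motifs. A match is a string of letters and no evidence of binding, and a window without one says nothing about the factor. The 250 bases before the start are shown for Shmt1, the enzyme with the largest change, and for Tyms, which did not pass. Capitals mark the E-box.
Shmt1, chr11:60811266-60811515, minus strand: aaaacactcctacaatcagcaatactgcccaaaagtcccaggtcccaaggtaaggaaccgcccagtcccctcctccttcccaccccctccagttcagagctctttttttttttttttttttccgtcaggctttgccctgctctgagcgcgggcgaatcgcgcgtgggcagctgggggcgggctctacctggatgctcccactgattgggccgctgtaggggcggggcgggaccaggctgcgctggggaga
Tyms, chr5:30073626-30073875, minus strand: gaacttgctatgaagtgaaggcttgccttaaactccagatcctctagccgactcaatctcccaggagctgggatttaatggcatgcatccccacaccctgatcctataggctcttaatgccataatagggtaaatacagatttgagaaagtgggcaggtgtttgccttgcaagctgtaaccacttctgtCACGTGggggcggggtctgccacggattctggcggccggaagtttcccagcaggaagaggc

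Other genes of the pathway were described from 4 lists, by role. Their counts stand beside 5.79% of all genes tested called higher in KO and 6.38% in WT. Among 19 genes of folate uptake, storage and interconversion, 17 were tested, and Folr2 and Dmgdh did not pass the filter on dim probes. Only Slc19a1, the reduced folate carrier of the cell surface, rose in this list, by 1.95 ± 0.17 in KO (3.65 and 4.02 stimulated, against 1.93 and 1.84 in medium, adjusted p = 0.00301) and by 1.82 ± 0.17 in WT (3.60 and 3.68 stimulated, against 1.66 and 1.98 in medium, adjusted p = 0.00394). The list median was 0.07 in KO and -0.18 in WT, and 1 gene called of 17 is near the share over all genes. Slc25a32, the mitochondrial folate carrier, singled out after its values were seen, stood at 0.61 ± 0.22 in KO and 0.85 ± 0.22 in WT without passing (adjusted p = 0.156 and 0.0654).

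The list of serine and glycine supply held 12 genes, all tested, and included the glycine cleavage system, which breaks glycine down. In it 2 rose in KO and 4 in WT and none fell, with list medians of 0.19 and 0.25. Gcsh, the lipoyl-carrying protein of the mitochondrial glycine cleavage system, rose by 1.37 ± 0.18 in KO and 1.28 ± 0.18 in WT (adjusted p = 0.0102 and 0.0127). The other parts of that system, Gldc, Amt and Dld, passed in neither genotype, and Amt was well above background on 3 of the 8 arrays. Psat1, an enzyme of serine synthesis, stood at 1.03 ± 0.26 in KO (adjusted p = 0.0682) and rose by 1.1 ± 0.26 in WT (adjusted p = 0.0498). The neutral amino acid transporter gene Slc1a5 rose by 0.78 ± 0.12 in KO and 0.69 ± 0.12 in WT (adjusted p = 0.0168 and 0.0238). Slc1a4, another neutral amino acid transporter gene, stood at 0.09 ± 0.13 in KO (adjusted p = 0.715) and rose by 0.72 ± 0.13 in WT (adjusted p = 0.0239). The response of Slc1a4 in KO minus that in WT was -0.64 ± 0.18 and did not pass (adjusted p = 1 with limma), nor did that of Psat1. Without both KO replicate 2 arrays 1 gene of this list was called in KO.

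The list of users of one-carbon units held 15 genes of purine and methionine metabolism, all tested. Not every enzyme in it takes such a unit itself. In this list 5 rose in KO and 5 in WT and none fell, with list medians of 0.09 and 0.45. Gart, which carries folate-dependent and other steps of purine synthesis, rose by 1.19 ± 0.13 in KO and 1.1 ± 0.13 in WT (adjusted p = 0.00618 and 0.00815). Ppat, the first committed enzyme of that route, rose by 1.0 ± 0.13 in KO and 0.92 ± 0.13 in WT (adjusted p = 0.0109 and 0.0146). Pfas rose in KO (1.16 ± 0.22, adjusted p = 0.0329) and stood at 0.68 ± 0.22 in WT (adjusted p = 0.11), and Adsl stood at 0.79 ± 0.24 in KO (adjusted p = 0.105) and rose in WT (1.1 ± 0.24, adjusted p = 0.0418). Both act later in the same route, and for neither did the response in KO minus that in WT pass (0.48 ± 0.32 and -0.31 ± 0.34, adjusted p = 1 for both). The other 2 that rose in both were Atic, the last folate user of purine synthesis, and Mat2a, which makes S-adenosylmethionine. Without both KO replicate 2 arrays 1 gene of this list was called in KO.

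Of 10 thymidylate and deoxynucleotide genes beside Tyms, 2 rose in both genotypes and none fell, with list medians of 0.12 in KO and 0.11 in WT. Dctd, deoxycytidylate deaminase, which makes the substrate of Tyms, rose by 2.04 ± 0.35 in KO and 2.11 ± 0.35 in WT (adjusted p = 0.0230 and 0.0207). Samhd1, which breaks down deoxynucleotides, rose by 1.43 ± 0.13 in KO and 1.88 ± 0.13 in WT (adjusted p = 0.00322 and 0.00137). Myc and Atf4 are transcription factors known to drive genes of this pathway. Myc rose by 3.74 ± 0.26 in KO and 3.79 ± 0.26 in WT (adjusted p = 0.00142 and 0.00137). Atf4 stood at 0.21 ± 0.14 in KO and 0.13 ± 0.14 in WT (adjusted p = 0.404 and 0.567). These are RNA signals, and the part of either factor in the changes of the enzymes was not tested.

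**Figure D3:**
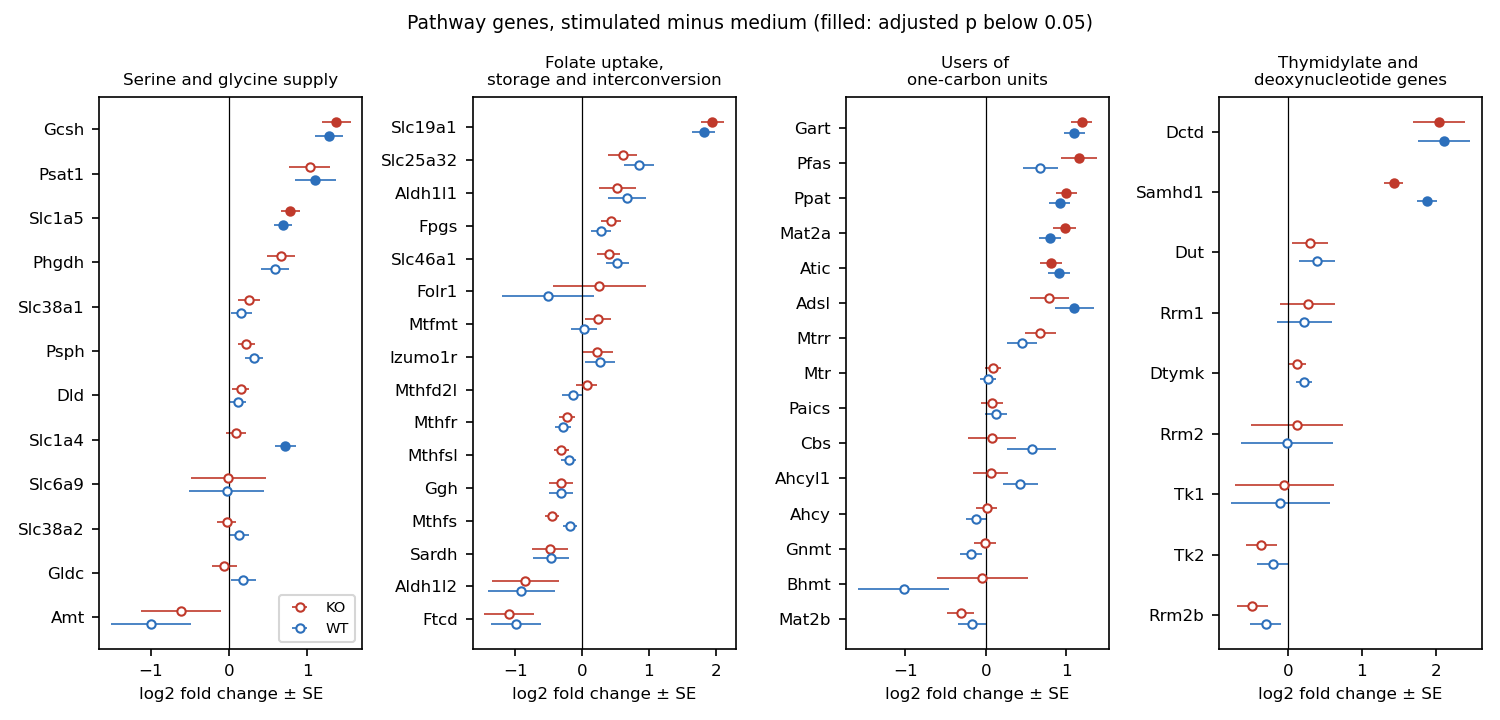
Log2 fold change, stimulated minus medium, with standard errors (horizontal axis), of tested genes of the 4 pathway lists, with 1 gene left out, in KO (red) and WT (blue). Filled points have an adjusted p below 0.05. Filled points lie right of 0 in each panel, led by Gcsh, Slc19a1, Gart and Dctd.

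KO and WT cells were compared for the 6 enzymes in each condition. None of the 6 was called after stimulation, in medium, or over both conditions together, where 0.0198%, 0.00661% and 0.00661% of all genes were called, and 0 of 6 had an unadjusted p below 0.05 in any of these. After stimulation KO minus WT ran from -0.13 ± 0.14 for Tyms to 0.39 ± 0.24 for Shmt1 (adjusted p = 0.938 for both). The 2 stimulated KO arrays lay above both WT ones for Shmt1 (0.12 and 0.80, against 0.05 and 0.09), and without both KO replicate 2 arrays the difference was 0.05. In medium KO minus WT ran from -0.03 ± 0.24 for Shmt1 to 0.30 ± 0.14 for Tyms (adjusted p = 0.969 and 0.738). The Tyms signals in medium were -1.90 and -1.90 in KO, against -2.25 and -2.15 in WT, and the difference was also 0.30 without both KO replicate 2 arrays.

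The precision of these comparisons differed by gene. The fit pools the spread of the 4 groups, so KO and WT changes share the same standard error. The root mean square standard deviation of the 6 enzymes within a group was 0.295 in stimulated KO cells and 0.146 in KO medium. In WT it was 0.0896 and 0.101, so the pooled errors may be too small for KO. The 95% interval of KO minus WT after stimulation was -0.28 to 0.27 for Mthfd1l, -0.31 to 0.43 for Mthfd2, -0.27 to 0.61 for Shmt2, -0.37 to 0.53 for Mthfd1, -0.20 to 0.98 for Shmt1 and -0.46 to 0.20 for Tyms. These intervals, before any adjustment, give the differences compatible with 2 arrays a group. The stimulation response in KO minus that in WT was called for 0 of 6, with 0.00661% of all genes called and 0 of 6 at an unadjusted p below 0.05. It was 0.42 for Shmt1 (95% interval -0.42 to 1.26), 0.08 for Mthfd1 (-0.56 to 0.72), 0.03 for Shmt2 (-0.59 to 0.65), -0.05 for Mthfd2 (-0.58 to 0.47), -0.10 for Mthfd1l (-0.48 to 0.29) and -0.43 for Tyms (-0.90 to 0.04).

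**Figure D4:**
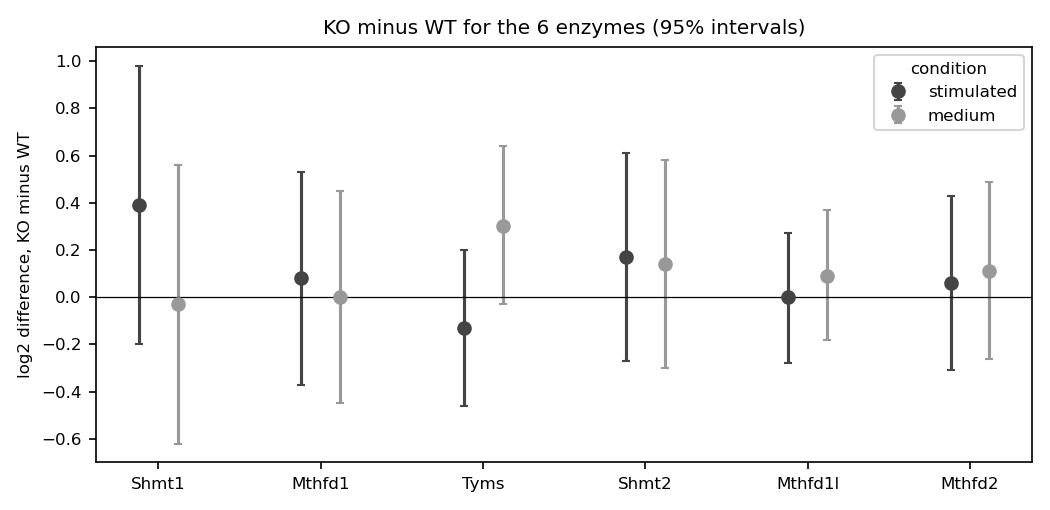
KO minus WT on the log2 scale (vertical axis) for the 6 enzymes, after stimulation (dark) and in medium (light), with 95% intervals of the fit. Every interval includes 0, and those of Shmt1 are the widest.

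Tyms is often counted among genes of S phase, so it was set beside genes of that kind, chosen after their values were seen. Rrm2, a subunit of ribonucleotide reductase, lay 1.67 and Tk1, thymidine kinase, 1.59 above the WT medium mean on stimulated KO replicate 2, and 1.40 and 1.66 above it on KO medium replicate 2. On the other 6 arrays Rrm2 lay between -0.08 and 0.07 and Tk1 between -0.27 and 0.13. Tyms lay at 0.12 and 0.30 on the KO replicate 2 arrays, within its range of -0.10 to 0.30 on the others. The Tyms probe did not share the high values on these arrays of Rrm2, Tk1 and the division marker Mki67 (1.34 and 1.09). Some other S phase genes did not share them either, although the median of the 16 proliferation markers there was 1.03 and 0.92. The scaled log2 signals of Pcna (5.20 and 4.98), Mcm4 (4.53 and 4.44) and Mcm6 (6.04 and 6.13) lay within their ranges on the other 6 arrays. Tyms is thus not set apart here from S phase genes as a whole.

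**Figure D5:**
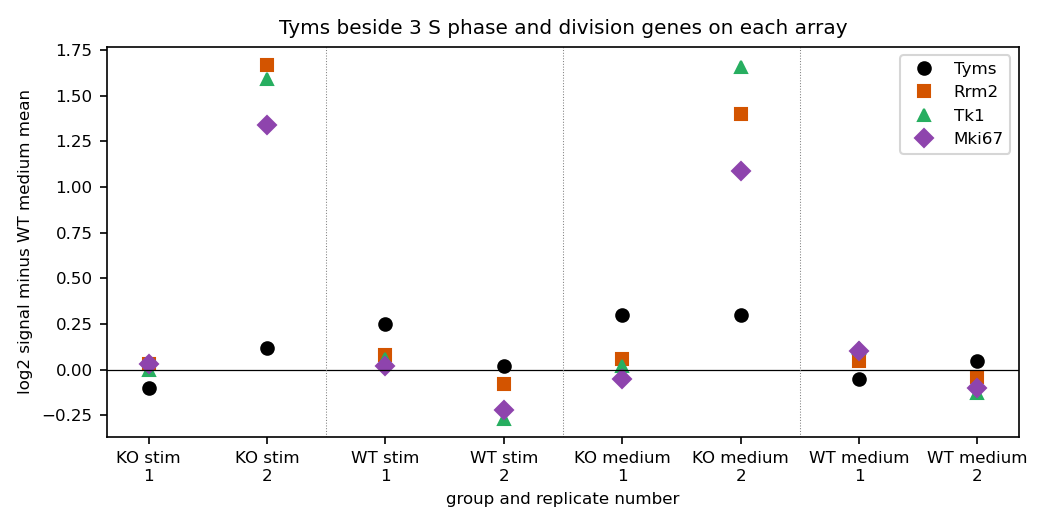
Log2 signal of Tyms, Rrm2, Tk1 and Mki67 minus the WT medium mean (vertical axis) on each of the 8 arrays (horizontal axis, group and replicate number). Rrm2, Tk1 and Mki67 stand between 1.09 and 1.67 on the KO replicate 2 arrays, and Tyms at 0.12 and 0.30.

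The genes whose pattern over the 8 arrays was most like that of each enzyme were found by the root mean square difference of log2 signals after each gene's mean was removed. For Shmt1 they were Myc (0.155), Cd70 (0.207) and Bcat1 (0.210), where Shmt1 itself spanned 4.36. This holds for the brighter Shmt1 probe. The dimmer one changed on stimulation by 0.80 in KO and 0.99 in WT, and Myc by 3.74 and 3.79. Myc had 3.92 and 4.62 in stimulated KO cells, against 0.35 and 0.71 in KO cells in medium, and 4.17 and 4.18 in stimulated WT cells, against 0.24 and 0.54 in WT cells in medium. For Mthfd1 they were Mrto4 (0.056), Lap3 (0.070) and Timm8a1 (0.077). C1qbp was near both Shmt2 (0.074, after Urb2 at 0.070 and Eif2b3 at 0.073) and Mthfd2 (0.067, after Nme1 at 0.043 and Trib1 at 0.063). The nearest to Mthfd1l were Ecd (0.026), Clns1a (0.032) and Gm15760 (0.036). Those nearest to Tyms were Obp1a (0.062), Kcne1l (0.064) and Gm11937 (0.066), beside a span of 0.41 for Tyms itself.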

How the data were processed

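Values were the authors' deposited spot intensities, 1 array per sample, made with Feature Extraction (Agilent, version 10.7.1.1), per the file headers. Its processed signal has the local background already subtracted. The deposited value table held the median intensity, equal to that of the scanner files. Spots flagged as outliers and 3671 control spots of 62976 were left out, spots of a probe were averaged as log2, and each array's 75th percentile (1207 to 1473) was subtracted. The filter kept 37257 of 55681 probes, those that at least 1 group showed well above background on both its arrays. An array had 58.4% to 69.2% of its probes at that level, and the number of arrays limits the precision. Accessions of 26056 probes matched RefSeq genes of GRCm38.p6, while the headers name mm9, so gene coordinates were not used. Each gene was its probe with the highest mean.

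limma 3.58.1 in R 4.3.3 fitted 4 group means over 8 arrays (4 residual and 2.12 prior degrees of freedom) and 6 contrasts, and was tested on simulated data. All arrays share 1 slide and 1 scan. Exact permutation of 2 against 2 arrays cannot reach p below 0.05. The files give no mean signal, so the normexp alternative used the median signal. No label says that replicate numbers pair the samples. The members, gene lists and rules were chosen with earlier results of these data known. Besides the members and Lsp1, named genes were up to 4 called genes with the largest change per pathway list, Myc, Atf4 and 3 nearest genes per member, and genes chosen otherwise are marked as such or counted whole. Of the pathway lists, 1 gene entered the counts and is not reported here by itself.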

Additional observations from a re-analysis of the deposited data

Results flagged for a closer look

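For Tyms, which passed in neither genotype, the stimulated arrays lay on opposite sides of their medium means in KO and in WT. The stimulated KO arrays lay -0.40 and -0.19 from the KO medium mean, and the stimulated WT arrays 0.25 and 0.02 from the WT medium mean, where stimulated and medium arrays overlapped. The response in KO minus that in WT was -0.43 ± 0.19, which did not pass in the test of the difference itself (limma interaction, unadjusted p = 0.066, adjusted p = 1).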

How the results depend on the processing

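The rises of Shmt1, Mthfd1, Shmt2 and Mthfd2 and the WT rise of Mthfd1l kept their direction under every alternative run, while calls did not. In KO the members called numbered 0 in a fit of only the groups compared, and 3 to 4 when 1 array was left out. In WT they numbered 1 to 5 when 1 array was left out (1 without WT medium replicate 1, WT stimulated replicate 1 or WT stimulated replicate 2). Mthfd1l passed in KO with the deposited value table (0.48, adjusted p = 0.0319), with normexp background correction (0.48, 0.0296) and with the replicate block within genotype (0.45, 0.0499). No member was called between genotypes under any alternative.

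Genes called after stimulation in KO numbered 520 without both KO replicate 2 arrays, 809 with no filter on dim probes, 37 in the fit of only the groups compared and 378 to 1539 with 1 array left out, and in WT 2602, 3010, 2743 and 255 to 1763. For KO minus WT in medium they numbered 0 without both KO replicate 2 arrays, 0 with only the groups compared and 1 to 62 with 1 array left out. After stimulation they numbered 56 without both KO replicate 2 arrays, 0 with only the groups compared, 1 with the deposited table, normexp or probes above background on all arrays, and 2 to 74 with 1 array left out. Averaged over both conditions they numbered 25 without both KO replicate 2 arrays, 2 with the deposited table or normexp, 5 with quantile normalization, 4 with probes above background on all arrays and 1 to 84 with 1 array left out. For the response in KO minus that in WT they numbered 10 without both KO replicate 2 arrays, 2 with median scaling, 3 with quantile normalization, 0 with the deposited table, normexp, no filter, probes above background on all arrays or either block, and 0 to 46 with 1 array left out. The cause of these shifts was not tested. Fits without both KO replicate 2 arrays leave 1 array in each KO group, so their counts rest on the spread of the WT arrays alone.

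The mitochondrial minus cytosolic difference was -0.60 in KO and -0.56 in WT with normexp, -0.23 and -0.26 with the mean over probes, 0.30 and 0.17 with the dimmer probes, 0.30 and 0.16 without Shmt1, and -0.85 to -0.66 and -0.76 to -0.63 with 1 array left out. The dimmer probes, the mean without Shmt1 and the pathway counts were chosen after seeing the data. Without both KO replicate 2 arrays the pathway genes called were 1 for serine and glycine supply in KO, 1 for users of one-carbon units in KO and 2 for folate uptake, storage and interconversion in WT.

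The values of single members that changed sign were all uncalled differences between genotypes. In medium Mthfd1 was 0.06 with the deposited table or normexp, 0.04 with quantile normalization and 0.10 with median scaling, and Shmt1 was 0.02 with quantile normalization, 0.07 with median scaling, 0.05 with the mean over probes and 0.13 with the dimmer probe. After stimulation Mthfd1l was 0.01 with the deposited table or normexp, 0.03 with quantile normalization or the mean over probes and 0.07 with the dimmer probe, where Shmt1 was -0.07. Without both KO replicate 2 arrays Mthfd2 was -0.01 in medium, Mthfd1, Shmt2 and Mthfd2 were -0.17, -0.03 and -0.10 after stimulation, and Shmt1, Mthfd1 and Mthfd2 were -0.09, -0.13 and -0.06 averaged over both conditions. The response in KO minus that in WT was -0.03 for Mthfd1 and -0.08 for Shmt2 with median scaling, -0.09 and -0.10 without both KO replicate 2 arrays, and -0.20 for Shmt1 with the dimmer probe. With 1 array left out, the members that changed sign ranged as follows. In medium Shmt1 ran between -0.22 and 0.16, Mthfd1 between -0.09 and 0.09 and Mthfd2 between -0.01 and 0.24. After stimulation Mthfd1 ran between -0.17 and 0.33, Shmt2 between -0.03 and 0.38, Mthfd1l between -0.04 and 0.03 and Mthfd2 between -0.10 and 0.23. Averaged over both conditions Mthfd1 ran between -0.09 and 0.17 and Mthfd1l between 0 and 0.09. The response difference ran between -0.17 and 0.33 for Mthfd1, -0.17 and 0.24 for Shmt2 and -0.22 and 0.11 for Mthfd2.

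No label says that a shared replicate number marks paired samples. Deviations of same-numbered arrays correlated at 0.742 between the KO groups, whose replicate 2 arrays share the high marker values, at 0.161 between the WT groups and at -0.244 between the stimulated groups of the 2 genotypes. With the replicate block the members called stayed at 4 in KO and 5 in WT, and with the replicate block within genotype the genes called numbered 2778 in KO and 3516 in WT.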
